A study of Mus musculus with 9 samples.

Results

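Bone marrow-derived macrophages (BMMs) that had been kept in medium conditioned by osteosarcoma cells were compared with untreated ones, across all genes and library by library. The comparison uses 6 of the 9 libraries of the study: 3 labelled control and 3 labelled K7M2 CM (CM below). BMMs are macrophages grown in culture from mouse bone marrow precursors. K7M2 cells are a line of mouse osteosarcoma cells, and medium taken from them holds their released products. CM libraries came from BMMs after 48 h in that medium. For control the labels give no time and no medium, so time, medium and tumour cell products cannot be told apart. The labels give no strain, sex or age, and nothing in them says whether the 3 libraries of 1 group had separate cultures or animals behind them. P-values therefore speak of the spread among libraries, which may be technical. The 3 libraries with conditioned medium and DTM, an agent the labels do not spell out, entered only the estimate of that spread and the count filter.

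Macrophages read products of tumour cells through cytokine, nucleic acid and damage receptors. Interferons bind surface receptors whose Janus kinases phosphorylate STAT factors, and a complex of these with IRF9 switches on a large set of antiviral genes. In tumours macrophages are also known for releasing chemokines and proteases, for taking up debris and lipid, and for showing ligands that restrain T cells.

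Values are CPM, read counts relative to library size after TMM scaling, and 3 values in a row belong to replicates 1, 2 and 3 in that order. CPM depends on transcript length, so levels are compared between libraries and not between genes. Fold changes are log2 values estimated by edgeR and are given with a standard error (SE), and a gene is called when its adjusted p is under 0.05. Fewer cells of a type and less RNA per cell cannot be told apart in such bulk samples.

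The libraries held between 43084296 and 50407973 counts, and macrophage markers were abundant in all of them. Summed over 12 such markers, the level was 51045, 30673 and 31295 CPM in control and 43779, 44901 and 44976 CPM in CM. CM 1 stood apart. Its log2 CPM correlated with those of CM 2 and CM 3 at r = 0.940 and 0.939, against 0.985 between CM 2 and CM 3 and 0.973 to 0.986 among controls. Of 9873 genes whose CM mean reached 5 CPM, 59 were more than 4-fold higher and 234 more than 4-fold lower in CM 1 than in both of its mates. The same count of genes beyond both mates was 6 for CM 2, 11 for CM 3 and 6 to 26 for the controls.

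Sex-linked transcripts separated the replicate 1 libraries from the rest. Xist, the RNA that coats the inactive X chromosome of female cells, stood at 65, 0 and 0 CPM in control and 172, 0 and 0 CPM in CM. Kdm5d, a histone demethylase on the Y chromosome, stood at 1.44, 9.89 and 10.5 CPM in control and 0, 14.9 and 13.2 CPM in CM. Summed over Eif2s3y, Kdm5d, Ddx3y and Uty, 4 Y-linked genes of which Uty was chosen after its values were seen, the level was 6.08, 36.0 and 35.6 CPM in control and 0, 51.3 and 44.9 CPM in CM. CM 1 thus had Xist and no read of these Y-linked genes, control 1 had both, and the other 4 libraries had Y-linked reads and no Xist. The library with DTM that has the number 1 also had both, at 78.1 CPM of Xist and 8.49 CPM of the Y-linked genes. Sex of the donor and anything else that differed between replicate 1 and replicates 2 and 3 cannot be told apart. Results are therefore also given apart for each kind of library: as the fit of libraries without Xist (control 2 and 3, CM 2 and 3, and the 2 such DTM libraries for the spread), and as the difference between CM 1 and control 1, which has no replicate. Both were chosen after seeing the data.

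**Figure D1:**
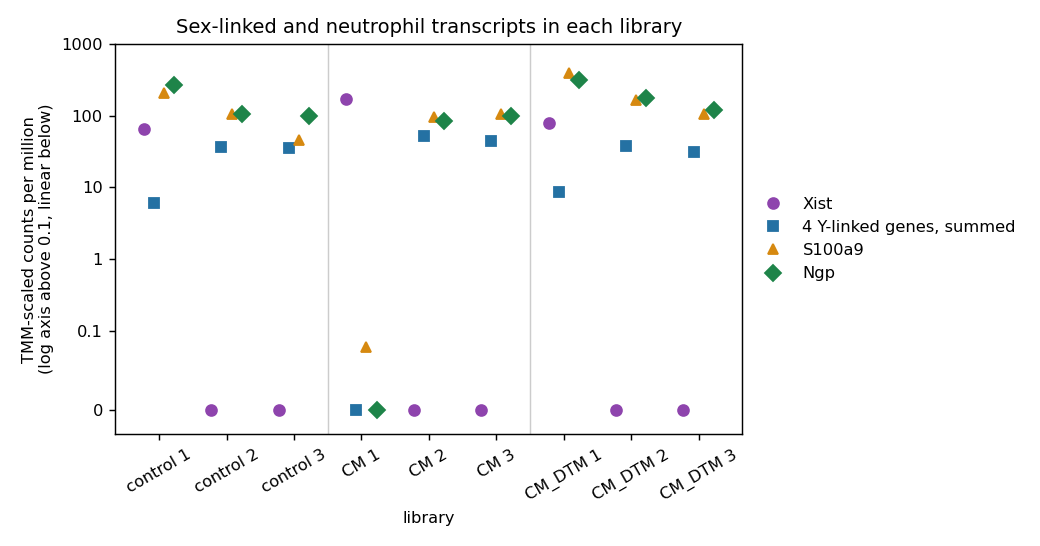
Each point is the TMM-scaled CPM of Xist, of 4 Y-linked genes summed, of S100a9 or of Ngp (both neutrophil granulocyte genes) in 1 of the 9 libraries, on an axis that is logarithmic above 0.1. Xist is present in the 3 libraries numbered 1, and CM 1 lacks the Y-linked genes and Ngp and is at 0.0790 CPM for S100a9.

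CM 1 also lacked some transcripts of other bone marrow cells. Ngp, a neutrophil granule protein, stood at 268, 105 and 98.2 CPM in control and 0, 83 and 99.2 CPM in CM. S100a9, an alarmin of neutrophils and monocytes, stood at 208, 107 and 46.5 CPM in control and 0.079, 95.8 and 105 CPM in CM. Ltf and Chil3 likewise had 0 reads in CM 1 and between 34.1 and 43.6 CPM in CM 2 and 3. Over 18 neutrophil genes tested, the median log2 difference from the control mean was -4.01, 0.10 and 0.15 in CM 1, 2 and 3. Their summed level was 878, 460 and 334 CPM in control and 418, 1138 and 1064 CPM in CM, so CM 1 lay within the control range. The 1 called gene among them, Mmp8, was higher in every CM library and is given below with the proteases. For 22 mesenchymal and osteoblast genes, which would mark K7M2 cells, the median difference was -2.70, -0.18 and -0.07. The summed level of these 22 was 4819.8, 3001 and 3179 CPM in control and 429, 2574 and 2723 CPM in CM. The latter sum was lower in every CM library than in every control. The part of these cells in the results below was not tested.

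Between CM and control, 865 of 15429 genes tested differed. CM was higher for 623 genes (4.04% of those tested) and lower for 242 (1.57%). The median rise was 1.72 and the median fall -1.38 on the log2 scale. Of the rises 56 exceeded a log2 fold change of 4 and 208 lay between 2 and 4, and of the falls 16 and 64 did. Genes called higher took 5.28, 5.92 and 5.91% of all reads in control and 17.9, 17.9 and 18% in CM, and genes called lower took 2.5, 2.23 and 2.19% and 0.843, 0.916 and 0.897%. These shares describe genes that were picked by the same values. All 3 CM libraries lay above all 3 controls for 2826 genes (18.3%) and below them for 2843 (18.4%), and 621 of the 623 and 242 of the 242 called genes were among these. Over the rises the median difference from the control mean was 1.71, 1.65 and 1.62 in CM 1, 2 and 3, and over the falls -1.51, -1.39 and -1.32. These medians too are fixed in part by the call, which used the same values. CM 1 was the most extreme CM library for 287 rises and the least extreme for 271. At an unadjusted p under 0.05, used for some lists below, edgeR gave 3307 of the 15429 genes, higher and lower together.

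**Figure D2:**
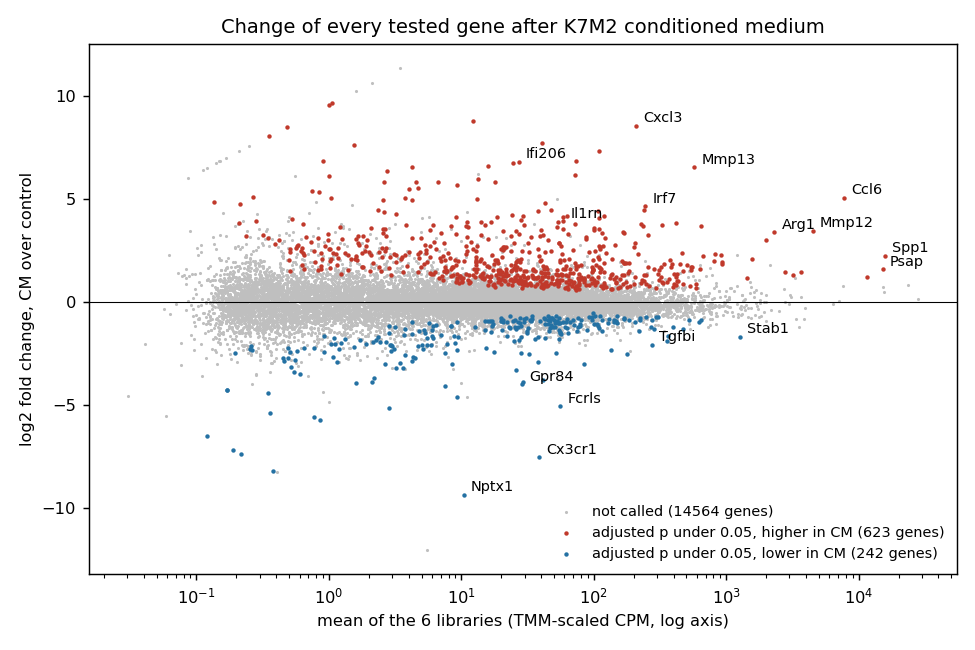
Each point is 1 of 15429 genes, with its mean CPM over the 6 libraries on a logarithmic axis and its edgeR log2 fold change of CM over control. Called genes (623 higher in red, 242 lower in blue) span the whole range of levels, with Ccl6, Spp1 and Psap at the top and Cx3cr1 and Nptx1 among the largest falls.

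How many genes were called depended on which libraries entered. Without CM 1 it was 607 higher (3.84% of 15792 genes) and 223 lower (1.41%), of which 470 and 157 were called with all libraries too. In the libraries without Xist it was 1514 higher (9.8% of 15445 genes) and 1318 lower (8.53%), and these held 617 of the 623 and 236 of the 242. Without control 1 it was 208 higher and 68 lower, without control 2 182 and 74, and without control 3 235 and 82. Without CM 2 it was 284 and 69, and without CM 3 329 and 84. Without the first library with DTM, which enters the spread, it was 1207 and 677, and without the third 458 and 152. Scaling by total counts instead of TMM moved the median of all genes from -0.01 to -0.21 and gave 415 rises and 464 falls. Under no alternative did a gene of the 865 that was tested there change its direction.

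The response in replicate 1 and that in replicates 2 and 3 share no library. CM 1 minus control 1 had the same sign as CM 2 and 3 minus control 2 and 3 for 622 of the 623 rises and all 242 falls, though the call itself used these values. Over the 9874 genes whose mean reached 5 CPM, chosen without regard to the call, the signs matched for 6912 and were opposite for 2962, with a Pearson correlation of 0.548 across genes, which are not independent of each other. Both differences were at least 2-fold in the same direction for 578 of them.

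**Figure D3:**
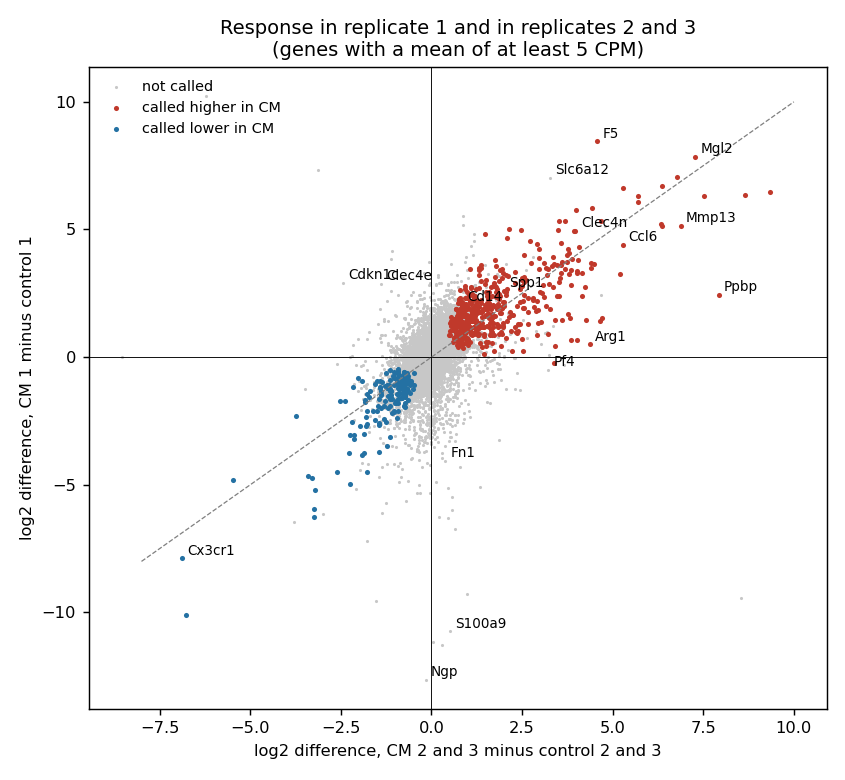
Each point is a gene whose mean reached 5 CPM, with the log2 difference of CM 2 and 3 from control 2 and 3 on the horizontal axis and that of CM 1 from control 1 on the vertical axis (broken line, equal differences). Called genes, all but 1, have the same sign on both axes. Clec4e and Cdkn1c are both above 0 on the vertical axis and below 0 on the horizontal axis. Ngp and S100a9 are low in CM 1 only.

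Each list of interferon-induced genes held called rises, and the interferon genes themselves were hardly read. Of 13 interferon genes in the table, 10 had 0 counts in all 6 libraries, and no count exceeded 4, so all fell below the count filter. A level of 0 counts allows up to 3 counts per library and covers counting error only. Of 9 interferon receptor and Janus kinase genes 1 rose (Jak2) and 0 fell. Jak2 lost the call whichever of the 6 control and CM libraries was left out (adjusted p up to 0.112). Of 16 STAT and IRF factors 4 rose (1 to 4 when 1 control or CM library was left out) and 0 fell. Irf7, which amplifies type I interferon production, stood at 24, 16.8 and 15.2 CPM in control and 228, 571 and 616 CPM in CM. All CM libraries lay far above the highest control, with CM 1 the lowest of them (log2 fold change 4.66, SE 0.42, adjusted p = 0.000894). Stat2 stood at 27.5, 35.6 and 31.6 CPM in control and 137, 247 and 183 CPM in CM (log2 fold change 2.58, SE 0.48, adjusted p = 0.017). Irf9, its partner in the complex, rose less (log2 fold change 0.70, SE 0.15, adjusted p = 0.0277). CM and control did not overlap for these factors. Irf7 stayed called in each of the 6 fits that lacked 1 control or CM library. Stat2 was not called without control 1, 2 or 3 or CM 2 (adjusted p up to 0.0938). Irf9 was not called without control 1, 2 or 3 or CM 2 or 3 (adjusted p up to 0.147).

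Of 19 sensors of foreign RNA and DNA and their adaptors 5 rose, 0 fell and 14 were not called, with log2 fold changes down to -0.87. In each fit that lacked 1 control or CM library 5 rose, and in the libraries without Xist 11 rose and 1 fell. Ddx58, which encodes the RNA sensor RIG-I, stood at 23.4, 32 and 35.5 CPM in control and 149, 187 and 181 CPM in CM, with all CM libraries above all controls (log2 fold change 2.5, SE 0.26, adjusted p = 0.00173). Zbp1, a sensor of Z-form nucleic acid, stood at 4.92, 7.09 and 8.37 CPM in control and 71.4, 113 and 117 CPM in CM (log2 fold change 3.88, SE 0.54, adjusted p = 0.00514). Ifih1, the long RNA sensor MDA5, rose by 2.5 and Dhx58, a regulator of both RNA sensors, by 1.76 on the log2 scale (adjusted p = 0.00294 and 0.00159). Ddx58, Zbp1, Ifih1 and Dhx58 stayed called in each of the 6 fits that lacked 1 control or CM library.

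Of 43 antiviral effectors 35 rose and 1 fell, with a median log2 fold change of 2.46 against -0.01 over all genes. Their median difference from the control mean was 2.04, 2.56 and 2.64 in CM 1, 2 and 3. Ifit1, which binds foreign RNA caps and stands in the title of the series, was at 0.731, 0.823 and 0.835 CPM in control and 31, 24.8 and 19.9 CPM in CM. The CM libraries did not overlap with control and CM 1 was highest (log2 fold change 4.98, SE 0.90, adjusted p = 0.0148). Oas3, a synthetase that activates RNA decay, stood at 49.3, 50.5 and 46.3 CPM in control and 254, 429 and 398 CPM in CM (log2 fold change 2.89, SE 0.26, adjusted p = 0.000894). Ifitm3, which blocks viral entry, stood at 349.5, 274 and 196 CPM in control and 1190.5, 1446 and 1464 CPM in CM (log2 fold change 2.32, SE 0.51, adjusted p = 0.0333). CM 1 was the lowest CM library for both. Ifi44 went from 0.316, 0.56 and 0.957 to 24.1, 41.3 and 39.7 CPM (log2 fold change 5.84, SE 0.58, adjusted p = 0.00145). Rtp4 went from 14.2, 11.7 and 13.5 to 84.4, 97.3 and 105 CPM (log2 fold change 2.86, SE 0.17, adjusted p = 0.000162). For each of these 5 genes all CM libraries lay above all controls. Samhd1, which depletes nucleotides, stood at 147, 158 and 162 CPM in control and 279, 351 and 331 CPM in CM (log2 fold change 1.04, SE 0.15, adjusted p = 0.00654). The gene that fell was Ifi27. Oas3, Ifi44, Rtp4 and Samhd1 stayed called in each of the 6 fits that lacked 1 control or CM library. Ifit1 was not called without control 1, 2 or 3 (adjusted p up to 0.0853). Ifitm3 lost the call whichever of the 6 libraries was left out (adjusted p up to 0.131). Over those 6 fits between 19 and 29 effectors were called higher, and in the libraries without Xist 38 were.

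Families that lie in clusters moved together. Of 18 guanylate-binding proteins and immunity-related GTPases, which attack the vacuoles of pathogens, 16 rose and 0 fell, with a median of 3.21. Irgm1 stood at 32.8, 40.4 and 43.3 CPM in control and 175, 179 and 169 CPM in CM (log2 fold change 2.17, SE 0.19, adjusted p = 0.000894). Of 12 PYHIN genes, which bind DNA, 10 rose, with a median of 3.62. Ifi204 stood at 11.3, 16.6 and 20.3 CPM in control and 170.3, 197 and 182 CPM in CM (log2 fold change 3.51, SE 0.43, adjusted p = 0.00294). Ifi206 and Ifi213 went from below 1 CPM in every control to 29.5, 65.7 and 65.4 and 20.6, 37.2 and 36.9 CPM. Of 7 Schlafen genes 5 rose: Slfn1 stood at 0.988, 1.28 and 1.77 CPM in control and 82.4, 289 and 276 CPM in CM (log2 fold change 7.32, SE 1.06, adjusted p = 0.00578). Slfn2 stood at 202, 125 and 117 CPM in control and 496, 672 and 638 CPM in CM (log2 fold change 2.03, SE 0.24, adjusted p = 0.00287). In these families CM 2 and 3 were close to each other, and CM 1 was lower for Slfn1, Ifi206 and Ifi213 and near them for Irgm1 and Ifi204. Irgm1, Ifi204, Ifi206, Ifi213, Slfn1 and Slfn2 stayed called in each of the 6 fits that lacked 1 control or CM library. Members of these families are similar in sequence, and reads may have been divided among them.

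The ISG15 system, which tags proteins with a ubiquitin-like label, had 4 of 6 genes called higher. Isg15 stood at 11.3, 10.5 and 6.96 CPM in control and 76.9, 164 and 160.5 CPM in CM (log2 fold change 3.8, SE 0.46, adjusted p = 0.00294). Usp18, the protease that removes the tag and damps interferon signalling, stood at 6.82, 6.0 and 6.47 CPM in control and 88.9, 136 and 129.8 CPM in CM (log2 fold change 4.2, SE 0.37, adjusted p = 0.000894). PARP family genes were called higher for 7 of 14 and TRIM ligases for 7 of 32, with 0 lower in both. Leaving out 1 control or CM library gave 3 to 7 and 3 to 6, and 3 to 5 for the Schlafen genes. Parp14 stood at 24.9, 47.9 and 43.9 CPM in control and 224, 221 and 176 CPM in CM (log2 fold change 2.41, SE 0.25, adjusted p = 0.00173). Trim30a stood at 19, 31.5 and 35.8 CPM in control and 169.5, 214 and 181 CPM in CM (log2 fold change 2.71, SE 0.33, adjusted p = 0.003). Of 8 SOCS feedback inhibitors edgeR called Socs3, at 7.53, 4.66 and 5.72 CPM in control and 20.7, 53.8 and 56.4 CPM in CM (log2 fold change 2.87, SE 0.47, adjusted p = 0.00995). The control and CM libraries of these genes did not overlap. Isg15, Usp18, Parp14 and Trim30a stayed called in each of the 6 fits that lacked 1 control or CM library. Socs3 was not called without control 2 or 3 (adjusted p up to 0.0594). Of the SOCS genes 5 were called higher in the libraries without Xist.

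Some of the rising genes were neighbours. Of 14081 tested genes placed in the gene order of RefSeq for GRCm38.p6, 587 rose and 230 fell. Of the 587 rising genes 84 lay in 24 runs of at least 3 tested neighbours that all rose. The fewer falling genes made 1 run of 3. How many runs the number of rises alone would give was not tested. Several runs hold similar members of 1 family, among which reads may have been divided. The longest runs had 6 genes each: Ccl9 to Wfdc17 on chromosome 11, with Ccl6 and Ccl3, and Ifi213 to Ifi204 on chromosome 1. Other runs held 5 guanylate-binding proteins on chromosome 5 (Gbp8 to Gbp6), 4 on chromosome 3 (Gbp5 to Gbp2), and 4 oligoadenylate synthetases on chromosome 5 (Oas2 to Oas1b). The genes at the ends of runs are named for their position.

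The promoters of 6 rising genes are shown because they carry the letters GAAANNGAA, the core of the interferon-stimulated response element, and belong to the genes of largest rise that do. Each covers 250 bases before to 50 after the gene's start in RefSeq, GRCm38.p6, written 5′ to 3′ along the gene, with matches on either strand in capitals. Ifi206 lies at chr1:173491269-173491568 (minus strand), Ifi213 at chr1:173599223-173599522 (minus strand), Ifi208 at chr1:173673415-173673714 (plus strand), Mmp13 at chr9:7272264-7272563 (plus strand), Ifi44 at chr3:151749861-151750160 (minus strand) and Ifit1 at chr19:34640639-34640938 (plus strand).
Ifi206: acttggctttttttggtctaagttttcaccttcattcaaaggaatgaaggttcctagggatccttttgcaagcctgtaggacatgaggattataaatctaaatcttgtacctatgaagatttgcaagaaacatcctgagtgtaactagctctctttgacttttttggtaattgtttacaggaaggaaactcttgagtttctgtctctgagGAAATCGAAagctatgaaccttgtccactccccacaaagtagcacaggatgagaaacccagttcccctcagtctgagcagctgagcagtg
Ifi213: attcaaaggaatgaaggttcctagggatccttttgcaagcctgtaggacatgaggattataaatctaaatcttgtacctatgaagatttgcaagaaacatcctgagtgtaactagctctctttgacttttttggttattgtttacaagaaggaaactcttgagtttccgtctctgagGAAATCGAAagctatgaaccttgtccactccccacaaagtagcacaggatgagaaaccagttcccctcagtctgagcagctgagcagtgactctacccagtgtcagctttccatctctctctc
Ifi208: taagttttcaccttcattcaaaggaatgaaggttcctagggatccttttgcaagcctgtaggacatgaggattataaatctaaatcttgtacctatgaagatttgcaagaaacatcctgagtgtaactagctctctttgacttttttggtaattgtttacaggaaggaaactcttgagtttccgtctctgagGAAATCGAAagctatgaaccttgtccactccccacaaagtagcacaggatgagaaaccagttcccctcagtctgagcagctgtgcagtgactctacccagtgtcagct
Mmp13: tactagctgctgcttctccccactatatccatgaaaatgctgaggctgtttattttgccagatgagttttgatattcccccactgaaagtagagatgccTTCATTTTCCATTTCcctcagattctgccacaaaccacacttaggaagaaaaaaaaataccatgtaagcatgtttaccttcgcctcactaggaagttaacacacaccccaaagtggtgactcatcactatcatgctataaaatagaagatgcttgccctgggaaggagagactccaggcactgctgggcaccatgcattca
Ifi44: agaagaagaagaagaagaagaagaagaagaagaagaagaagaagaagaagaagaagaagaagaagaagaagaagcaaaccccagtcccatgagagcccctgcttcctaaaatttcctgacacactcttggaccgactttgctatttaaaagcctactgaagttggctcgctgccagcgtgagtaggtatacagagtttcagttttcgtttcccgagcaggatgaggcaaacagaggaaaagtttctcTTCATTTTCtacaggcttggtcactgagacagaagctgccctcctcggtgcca
Ifit1: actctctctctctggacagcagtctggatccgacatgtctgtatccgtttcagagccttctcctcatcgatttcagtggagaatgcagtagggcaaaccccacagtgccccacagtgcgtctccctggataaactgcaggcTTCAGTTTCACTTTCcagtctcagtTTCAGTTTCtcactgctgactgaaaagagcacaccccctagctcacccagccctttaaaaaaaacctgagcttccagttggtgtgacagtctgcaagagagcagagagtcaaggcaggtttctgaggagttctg

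Ifit1 held 3 matches, which began 109, 103 and 84 bases before the start, Mmp13 held 2, and the others 1 each. The 3 PYHIN promoters shared an unbroken stretch of 135 bases that was identical in all of them. Among protein-coding genes, the RefSeq table held a promoter for 80.1% of the rises and 80.3% of all tested, and 82 of 446 promoters of rising genes (18.4%) had the letters, against 742 of 9994 of all tested (7.42%). Among list members tested that had a promoter in the table, it was 9 of 11 for guanylate-binding proteins and GTPases, 8 of 11 for PYHIN genes, 17 of 35 for antiviral effectors, 11 of 25 for TRIM ligases, 3 of 7 for Schlafen genes and 5 of 13 for sensors. It was 2 of 11 for PARP genes, 1 of 5 for the ISG15 system, 1 of 4 for SOCS genes, 2 of 14 for STAT and IRF factors and 1 of 8 for receptors and kinases. Among cytosolic ribosomal proteins, of which no gene was called, it was 9 of 39. The STAT letters TTCNNNGAA, which can share bases with the former, were in 9.19% of rising and 6.93% of all promoters, and the NF-kB letters GGANNTTCC in 7.17 and 4.57%. The antioxidant letters TGACNNNGC were in 14.8 and 15.0%, the amino acid response letters TGATGNAA in 4.26 and 2.24%, and the E2F letters TTTCCCGC in 1.121 and 2.13%. A match is a description of letters, not a bound site. For falling genes the table held only 74.5% of the promoters, and that check is void.

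Class I antigen presentation rose in part. Of 24 genes 8 were called higher and 0 lower (4 to 6 higher when 1 control or CM library was left out), and in the libraries without Xist 18 were higher. H2-D1, a classical class I heavy chain, stood at 1701, 1409.6 and 1288 CPM in control and 5846, 3119 and 3192 CPM in CM (log2 fold change 1.47, SE 0.33, adjusted p = 0.0374). H2-T23, a ligand of NKG2A, stood at 79.4, 63.3 and 70.2 CPM in control and 353, 385 and 347 CPM in CM (log2 fold change 2.35, SE 0.36, adjusted p = 0.00723). Of 10 class II genes edgeR and voom called 0 and DESeq2 called 1 (higher), and at an unadjusted p under 0.05 edgeR gave 1 higher and 1 lower. Ctss, the protease that trims the invariant chain, stood at 2174, 2039 and 1929 CPM in control and 3300.1, 5245 and 5292 CPM in CM (adjusted p = 0.0856). For Ctss, CM 2 and 3 were higher than CM 1, and in the libraries without Xist the gene was called (log2 fold change 1.41, SE 0.12, adjusted p = 0.000391). H2-T23 stayed called in each of the 6 fits that lacked 1 control or CM library. H2-D1 lost the call whichever of the 6 libraries was left out (adjusted p up to 0.151).

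Of 23 checkpoint ligands and costimulators 8 rose and 1 (Icosl) fell. 2 to 6 rose when 1 control or CM library was left out. Cd274, which encodes the T cell inhibitor PD-L1, stood at 16, 10.5 and 10.4 CPM in control and 182, 230.5 and 212 CPM in CM. All CM libraries lay far above the highest control (log2 fold change 4.08, SE 0.54, adjusted p = 0.00439). Lgals9, a lectin that binds TIM-3, stood at 143, 151 and 162 CPM in control and 333, 534 and 604 CPM in CM (log2 fold change 1.69, SE 0.26, adjusted p = 0.00852). Lgals3 stood at 1825, 2153 and 1874 CPM in control and 6235, 4724 and 5209.5 CPM in CM (log2 fold change 1.47, SE 0.18, adjusted p = 0.00305). Cd200r1, an inhibitory receptor on myeloid cells, stood at 32.9, 41.9 and 47.6 CPM in control and 223, 164 and 144 CPM in CM (log2 fold change 2.12, SE 0.37, adjusted p = 0.0134). CM 1 was lowest of the CM libraries for Cd274 and Lgals9 and highest for Lgals3 and Cd200r1. Cd274 and Lgals3 stayed called in each of the 6 fits that lacked 1 control or CM library. Lgals9 was not called without control 1 (adjusted p up to 0.0509). Cd200r1 was not called without control 1, 2 or 3 (adjusted p up to 0.0759).

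Chemokines that attract monocytes and neutrophils were among the largest changes. Of 12 CC chemokines 8 rose and 0 fell, and of 10 CXC chemokines 3 rose and 0 fell. Over the fits that lacked 1 control or CM library 2 to 8 CC and 0 to 3 CXC chemokines rose. In the libraries without Xist 10 CC chemokines rose and 0 fell, and 6 CXC chemokines rose and 2 fell. Ccl6 stood at 442, 443 and 481 CPM in control and 9383, 17463 and 18466 CPM in CM (log2 fold change 5.05, SE 0.48, adjusted p = 0.00112). The monocyte attractant Ccl2 stood at 374, 451 and 498 CPM in control and 1380.5, 4023 and 5294 CPM in CM (log2 fold change 3.02, SE 0.54, adjusted p = 0.0143). Ccl7 stood at 107, 79.2 and 92.2 CPM in control and 296, 1628 and 1659.6 CPM in CM (log2 fold change 3.68, SE 0.77, adjusted p = 0.0269). CM 1 was the lowest CM library for each of these CC chemokines. Cxcl3, a ligand of the neutrophil receptor CXCR2, stood at 1.72, 0.63 and 1.02 CPM in control and 157, 515 and 581 CPM in CM (log2 fold change 8.54, SE 1.58, adjusted p = 0.0164). Ppbp, another one, stood at 2.13, 0.70 and 0.998 CPM in control and 11.7, 218 and 209 CPM in CM (log2 fold change 6.84, SE 1.55, adjusted p = 0.0361). For each of these 5 genes CM 1 was above every control and below CM 2 and 3, far below for Ppbp. The median over CC chemokines was 1.67, 3.08 and 3.40 and over CXC chemokines 1.76, 3.26 and 3.54 in CM 1, 2 and 3. Ccl6 stayed called in each of the 6 fits that lacked 1 control or CM library. Ccl2 and Cxcl3 were not called without control 1, 2 or 3 (adjusted p up to 0.0856). Ccl7 and Ppbp were not called without control 1, 2 or 3 or CM 2 or 3 (adjusted p up to 0.148). In the libraries without Xist all 5 were called, with log2 fold changes from 3.30 to 9.39.

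Among chemokine receptors Ccr1, which binds several CC chemokines, went the other way from Cx3cr1. Ccr1 stood at 36.1, 25.6 and 31 CPM in control and 353, 474 and 445 CPM in CM (log2 fold change 3.78, SE 0.34, adjusted p = 0.000894). Ccr1 stayed called in each of the 6 fits that lacked 1 control or CM library. In all, 2 of 11 rose and 1 fell, and Cx3cr1 is described with the falls.

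Of 21 interleukins, TNF relatives and colony-stimulating factors 4 rose and 0 fell. Il1rn, the decoy ligand that blocks the interleukin 1 receptor, stood at 6.52, 7.23 and 7.98 CPM in control and 123.2, 101 and 107 CPM in CM. Its libraries were even within groups, and it had the lowest adjusted p of all genes together with F10 and Rtp4 (log2 fold change 3.93, SE 0.21, adjusted p = 0.000162). Il1a, an agonist of the same receptor, went from 0.593, 0.21 and 0.428 to 22, 27 and 29.2 CPM (log2 fold change 5.99, SE 0.87, adjusted p = 0.00592). Tnfsf14, which encodes LIGHT, stood at 2.63, 4.13 and 3.46 CPM in control and 23, 43.4 and 46.3 CPM in CM (log2 fold change 3.46, SE 0.38, adjusted p = 0.00199). The cytokine Osm stood at 15.8, 6.97 and 7.53 CPM in control and 55.3, 51.8 and 55.8 CPM in CM (log2 fold change 2.43, SE 0.59, adjusted p = 0.0471). Il1rn, Il1a and Tnfsf14 stayed called in each of the 6 fits that lacked 1 control or CM library. Osm lost the call whichever of the 6 libraries was left out (adjusted p up to 0.182).

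Of 28 extracellular proteases and inhibitors 5 rose, all of them matrix metalloproteinases (Mmp27 beside those below), and 0 fell. Fits that lacked 1 control or CM library gave 3 to 6 that rose. Mmp12, macrophage elastase, stood at 607, 744 and 911 CPM in control and 7664, 8504 and 8582 CPM in CM, with even values in CM (log2 fold change 3.45, SE 0.23, adjusted p = 0.000294). Mmp13, a collagenase, stood at 11.3, 12 and 13.3 CPM in control and 400.5, 1613 and 1383 CPM in CM, with CM 1 the lowest (log2 fold change 6.53, SE 0.54, adjusted p = 0.000894). Mmp8, a collagenase best known from neutrophils, stood at 27.1, 51.9 and 56.8 CPM in control and 355, 780.4 and 676 CPM in CM (log2 fold change 3.74, SE 0.39, adjusted p = 0.00173). Mmp19 stood at 42.7, 48.3 and 47.6 CPM in control and 277, 106 and 97.5 CPM in CM, with CM 1 the highest (log2 fold change 1.79, SE 0.37, adjusted p = 0.0243). Mmp12, Mmp13 and Mmp8 stayed called in each of the 6 fits that lacked 1 control or CM library. Mmp19 was not called without control 1, 2 or 3 (adjusted p up to 0.112).

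Factors of coagulation were called higher for 5 of 22 genes (F3 and Plaur beside those below) and lower for 0. When 1 control or CM library was left out 2 to 7 were higher, and 0 to 5 of the complement genes. F10, which encodes factor X, stood at 3.0, 2.26 and 2.06 CPM in control and 37.6, 48.5 and 50.3 CPM in CM (log2 fold change 4.22, SE 0.24, adjusted p = 0.000162). F7, which encodes factor VII, stood at 8.65, 7.35 and 7.04 CPM in control and 11.8, 76.7 and 78.3 CPM in CM (log2 fold change 2.85, SE 0.61, adjusted p = 0.0297). F5, which encodes the cofactor of factor X, stood at 0.296, 0.578 and 0.448 CPM in control and 118, 14.9 and 11.4 CPM in CM (log2 fold change 6.76, SE 0.99, adjusted p = 0.00606). The order of the CM libraries was opposite for F7 and F5: F7 in CM 1 was close to control, whereas F5 was highest there. Of 19 complement genes 4 rose (C1ra, C4b, Serping1 and Cfb) and 0 fell. Cfb, a protease of the alternative pathway, stood at 2.45, 1.16 and 1.55 CPM in control and 6.18, 10.9 and 10.1 CPM in CM (log2 fold change 2.4, SE 0.47, adjusted p = 0.0201). F10 and F5 stayed called in each of the 6 fits that lacked 1 control or CM library. F7 and Cfb were not called without control 1, 2 or 3 or CM 2 or 3 (adjusted p up to 0.127).

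Growth factors moved in both directions, with 4 of 30 higher (Hgf and Bmp2 beside those below) and 2 lower (Pdgfb and Angptl2). 1 to 5 rose and 1 to 3 fell when 1 control or CM library was left out. Igf1 stood at 302, 266 and 288 CPM in control and 463, 527 and 586 CPM in CM (log2 fold change 0.88, SE 0.15, adjusted p = 0.0119). Pdgfc stood at 7.53, 7.09 and 7.55 CPM in control and 14.6, 38.7 and 36.8 CPM in CM (log2 fold change 2.02, SE 0.36, adjusted p = 0.014). Pdgfb, a mitogen of mesenchymal cells, was lower in all CM libraries, going from 108, 45.4 and 46.5 to 8.0, 9.28 and 9.47 CPM (log2 fold change -2.9, SE 0.35, adjusted p = 0.00289). Pdgfb stayed called in each of the 6 fits that lacked 1 control or CM library. Igf1 was not called without control 2 or 3 (adjusted p up to 0.0856). Pdgfc was not called without control 1, 2 or 3 or CM 2 or 3 (adjusted p up to 0.0756).

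C-type lectins, which bind sugars of fungi and dying cells, rose for 7 of 19 genes and fell for 2 (Clec4a1 and Clec12a). Fits that lacked 1 control or CM library gave 4 to 5 that rose and 0 to 1 that fell. Clec7a (Dectin-1) stood at 46.3, 45.5 and 55.2 CPM in control and 245, 585 and 569 CPM in CM (log2 fold change 3.25, SE 0.41, adjusted p = 0.00314). Clec4n (Dectin-2) stood at 26.6, 15.4 and 19.7 CPM in control and 828, 279 and 269 CPM in CM, with CM 1 above CM 2 and 3 (log2 fold change 4.48, SE 0.61, adjusted p = 0.00475). Mgl2, a lectin of alternatively activated macrophages, went from 0.593, 0.368 and 0.204 to 147, 50.2 and 47.6 CPM (log2 fold change 7.7, SE 0.73, adjusted p = 0.0011). The similar lectin gene Clec10a went from 7.63, 7.27 and 5.23 to 52.1, 60.7 and 67 CPM (log2 fold change 3.16, SE 0.25, adjusted p = 0.000764), and reads may have been divided between them. Clec4e (Mincle) went opposite ways: it stood at 22.3, 18.7 and 17.5 CPM in control and 162, 6.87 and 6.86 CPM in CM, above control in CM 1 and below it in CM 2 and 3. It was not called with all libraries (log2 fold change 1.59, SE 1.03, adjusted p = 0.415) and fell in those without Xist (log2 fold change -1.40, SE 0.14, adjusted p = 0.000873). Clec7a, Clec4n, Mgl2 and Clec10a stayed called in each of the 6 fits that lacked 1 control or CM library. Of 12 markers of alternative activation, Mgl2 among them, 4 rose, 1 fell and 7 were not called. Their median difference from the control mean was -0.34, 1.06 and 0.97 in CM 1, 2 and 3. Their summed level was 5371, 2840 and 2873 CPM in control and 1554, 2726 and 2581 CPM in CM, lower in every CM library than in every control.

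Receptors for antibody and debris were mixed. Fcgr1, the high-affinity IgG receptor, stood at 272, 163 and 146 CPM in control and 322, 904 and 858 CPM in CM (log2 fold change 1.84, SE 0.45, adjusted p = 0.0485). The scavenger receptor Msr1 stood at 203, 169 and 157 CPM in control and 242, 764 and 742 CPM in CM (log2 fold change 1.73, SE 0.42, adjusted p = 0.0456). For both, CM 1 lay just above the highest control while CM 2 and 3 lay far above it. Cd300lf, an inhibitory receptor, stood at 14.1, 14.6 and 17.1 CPM in control and 99.1, 222 and 233 CPM in CM (log2 fold change 3.6, SE 0.33, adjusted p = 0.000894). Treml2 stood at 4.48, 9.42 and 9.43 CPM in control and 49.3, 124 and 119.8 CPM in CM (log2 fold change 3.65, SE 0.41, adjusted p = 0.00237). Of 16 genes of surface Toll-like receptors and their partners edgeR and voom called 0, and DESeq2 and edgeR at an unadjusted p under 0.05 gave 1 (higher). Cd14, the coreceptor for endotoxin, stood at 356, 254 and 218 CPM in control and 1495, 412 and 426 CPM in CM (adjusted p = 0.104), far higher in CM 1, and was called in the libraries without Xist (log2 fold change 0.83, SE 0.11, adjusted p = 0.00301). Cd300lf and Treml2 stayed called in each of the 6 fits that lacked 1 control or CM library. Fcgr1 and Msr1 were not called without control 1, 2 or 3 or CM 2 or 3 (adjusted p up to 0.184).

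**Figure D4:**
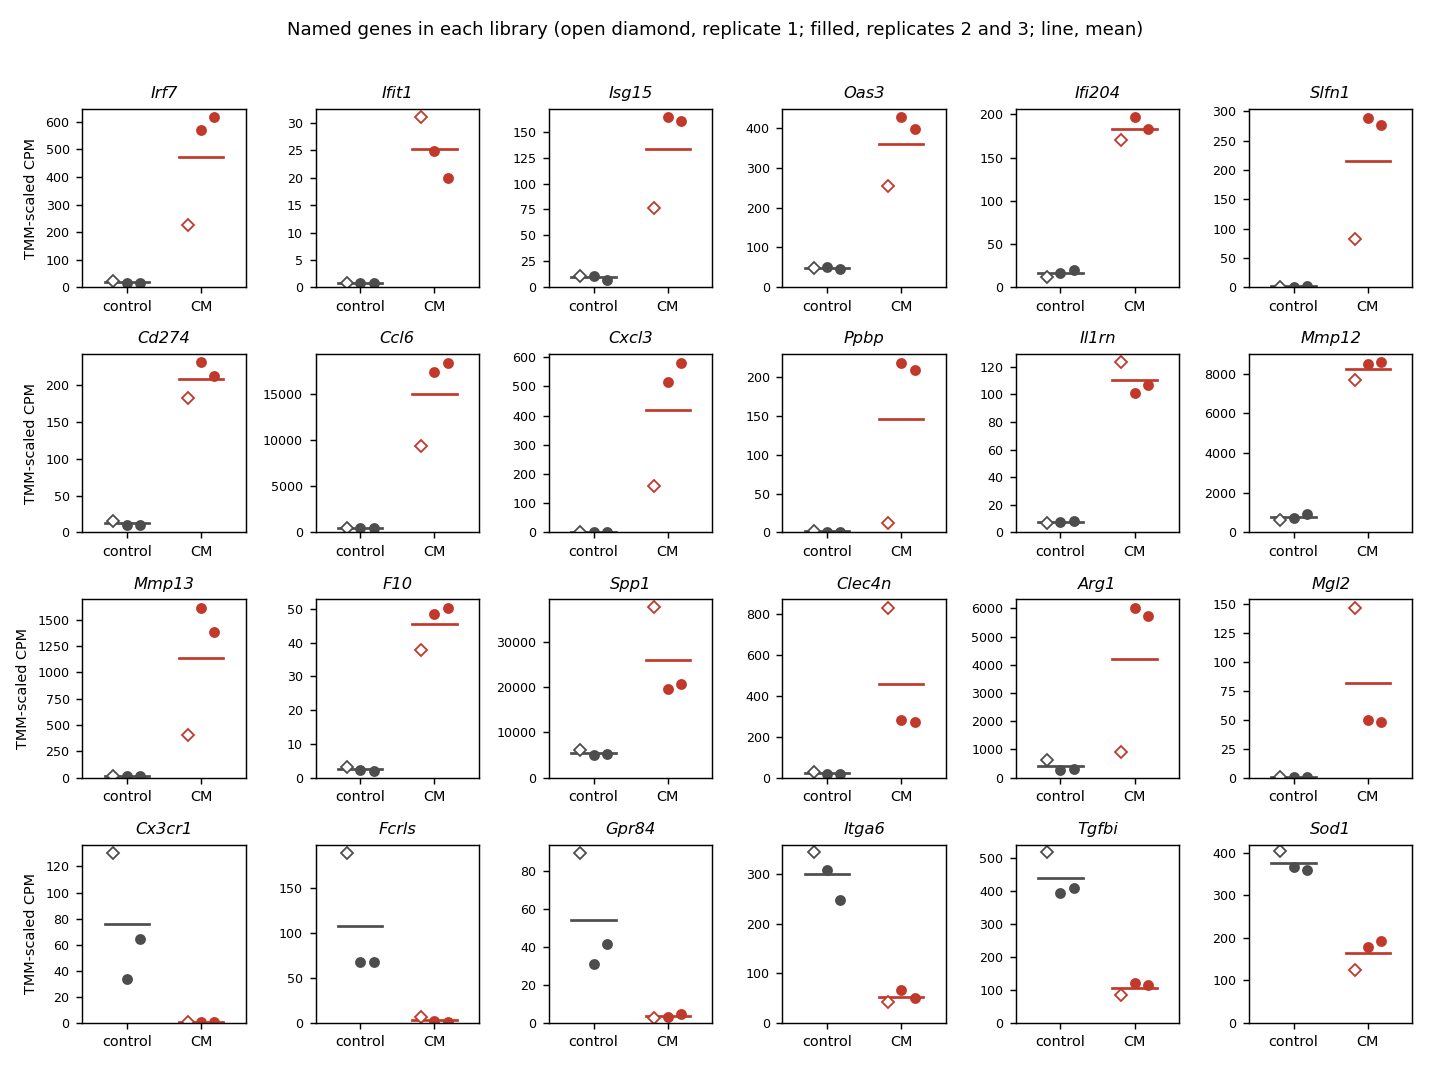
Each panel gives the TMM-scaled CPM of 1 gene in the 3 control (grey) and 3 CM (red) libraries from 0, with replicate 1 as an open diamond and the group mean as a line. Replicate 1 of CM is far from its mates for Arg1, Ppbp, Clec4n and Mgl2 and near them for Mmp12, Il1rn and Cd274.

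Some receptors of resident macrophages fell. Cx3cr1, the fractalkine receptor named in the title of the series, stood at 130.2, 33.3 and 64.7 CPM in control and 0.514, 0.421 and 0.288 CPM in CM. Control libraries differed from each other, yet the lowest lay far above the highest CM library (log2 fold change -7.53, SE 0.88, adjusted p = 0.00263). Fcrls, a receptor-like gene of microglia, stood at 189.5, 67.7 and 68.3 CPM in control and 6.76, 1.75 and 1.26 CPM in CM (log2 fold change -5.05, SE 0.80, adjusted p = 0.00903). Of 16 genes typical of microglia and similar resident cells 0 rose and 4 fell (Olfml3 and Gpr34 beside Cx3cr1 and Fcrls), with a median of -0.52, and in the libraries without Xist 7 fell. When 1 control or CM library was left out 2 to 3 fell. Gpr84, a receptor for medium-chain fatty acids, stood at 89.4, 31.2 and 41.6 CPM in control and 2.39, 3.18 and 4.62 CPM in CM (log2 fold change -3.99, SE 0.45, adjusted p = 0.00237). Gpr183, which guides cells along oxysterols, stood at 65.8, 49.1 and 47.5 CPM in control and 1.03, 5.09 and 5.13 CPM in CM (log2 fold change -3.85, SE 0.53, adjusted p = 0.00475). Control 1 was the highest control for each of these 4 genes, as it was for 171 of the 242 falls. Cx3cr1, Fcrls, Gpr84 and Gpr183 stayed called in each of the 6 fits that lacked 1 control or CM library. In the libraries without Xist their log2 fold changes were -7.11, -5.50, -3.22 and -3.24.

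Of 18 integrins 4 fell (Itga8 and Itga9 beside those below) and 1 rose, with a median of -0.34, and in the libraries without Xist 6 fell and 5 rose (median -0.09). Over the fits that lacked 1 control or CM library 2 to 4 fell. Itga6, a laminin receptor subunit, stood at 345, 309 and 248 CPM in control and 41.3, 66 and 50.6 CPM in CM (log2 fold change -2.51, SE 0.27, adjusted p = 0.00173). Itgb5 stood at 684, 458 and 511 CPM in control and 169.7, 183 and 184 CPM in CM (log2 fold change -1.62, SE 0.19, adjusted p = 0.00287). Itgax, the CD11c subunit, rose instead, from 42.6, 27.4 and 29.3 to 85.3, 109 and 105 CPM (log2 fold change 1.59, SE 0.27, adjusted p = 0.0121). CM and control did not overlap for the integrins named with values. Tgfbi, a matrix protein induced by TGF-beta, stood at 518, 394 and 408 CPM in control and 83.8, 119 and 114 CPM in CM (log2 fold change -2.06, SE 0.23, adjusted p = 0.00207). Of 16 Notch pathway genes 4 fell (Maml3 and Dtx4 beside those below) and 0 rose, with a median of -0.15, and in the libraries without Xist 4 fell and 3 rose (median 0.04). Over the fits that lacked 1 library 2 to 4 fell. Notch4 stood at 36.1, 10.3 and 7.33 CPM in control and 0.435, 1.07 and 0.708 CPM in CM (log2 fold change -4.6, SE 0.66, adjusted p = 0.00578). Jag2, a ligand of Notch receptors, stood at 7.35, 6.2 and 4.74 CPM in control and 0.771, 0.771 and 0.819 CPM in CM (log2 fold change -2.95, SE 0.52, adjusted p = 0.0135). Stab1, a scavenger receptor of resident macrophages, went from 2487, 1676 and 1641 to 433, 715 and 679.8 CPM (log2 fold change -1.67, SE 0.32, adjusted p = 0.0194). Itga6, Itgb5, Tgfbi and Notch4 stayed called in each of the 6 fits that lacked 1 control or CM library. Itgax was not called without control 2 or 3 (adjusted p up to 0.0776). Jag2 was not called without control 1 or 2 or CM 2 or 3 (adjusted p up to 0.0617). Stab1 was not called without control 1, 2 or 3 or CM 2 or 3 (adjusted p up to 0.0855).

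Other genes fell that belong to few of the lists. Nanos1, an RNA-binding repressor, stood at 104, 64.2 and 64.5 CPM in control and 3.85, 7.27 and 5.77 CPM in CM (log2 fold change -3.78, SE 0.40, adjusted p = 0.00173). Slamf9, a SLAM family receptor, stood at 96.6, 73.9 and 93.9 CPM in control and 10.4, 18.3 and 19.6 CPM in CM (log2 fold change -2.46, SE 0.29, adjusted p = 0.00275). Hgsnat, a lysosomal acetyltransferase, stood at 727, 474 and 471 CPM in control and 131, 170.3 and 153 CPM in CM (log2 fold change -1.88, SE 0.30, adjusted p = 0.00956). Mmd and Smagp were even within groups: Mmd went from 143, 158 and 159.8 to 65.2, 65.6 and 65.6 CPM and Smagp from 40.2, 38.4 and 38.4 to 9.29, 10.3 and 12.1 CPM (log2 fold change -1.23 and -1.88). Nptx1 went from 46.3, 7.2 and 8.92 to 0, 0 and 0.0885 CPM, and no fold is given for so few reads in CM. Nanos1, Slamf9, Hgsnat, Mmd, Smagp and Nptx1 stayed called in each of the 6 fits that lacked 1 control or CM library.

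Genes of lipid-laden and tissue-repairing macrophages rose in part: 9 of 21 were called higher and 0 lower, with a median of 0.70 (5 to 9 higher when 1 control or CM library was left out). Spp1, which encodes osteopontin, stood at 6225, 5021 and 5162 CPM in control and 37822, 19716 and 20798 CPM in CM, with CM 1 the highest (log2 fold change 2.26, SE 0.32, adjusted p = 0.00542). Gpnmb stood at 5884, 7127 and 7584 CPM in control and 15608, 15999.5 and 16846 CPM in CM (log2 fold change 1.23, SE 0.26, adjusted p = 0.0278). Abcg1, which exports cholesterol, stood at 8.59, 10.3 and 10.3 CPM in control and 348, 135 and 134 CPM in CM (log2 fold change 4.4, SE 0.48, adjusted p = 0.00199). It was the gene edgeR called of 16 liver X receptor and efflux genes. DESeq2 called 3 of these higher, and in the libraries without Xist 3 rose and 1 fell. Of 25 cholesterol synthesis genes edgeR and voom called 0 with all libraries, with a median of -0.41. At an unadjusted p under 0.05 edgeR gave 9 lower, against 3307 of all 15429 genes, higher and lower together. DESeq2 called 4 of the synthesis genes lower, and 12 fell in the libraries without Xist. Srebf2, their master regulator, stood at 227, 207 and 221 CPM in control and 157, 121 and 125 CPM in CM (log2 fold change -0.70, SE 0.30, adjusted p = 0.22 with all libraries, and log2 fold change -0.79, SE 0.14, adjusted p = 0.00958 without the Xist libraries). Spp1 and Abcg1 stayed called in each of the 6 fits that lacked 1 control or CM library. Gpnmb was not called without control 1, 2 or 3 or CM 2 or 3 (adjusted p up to 0.121).

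Lysosomal genes were called higher for 8 of 39 and lower for 0, and in the libraries without Xist for 23 and 2. 3 to 11 were higher when 1 control or CM library was left out. Psap, the precursor of the saposins, stood at 7745, 7876 and 7090.0 CPM in control and 19759, 24270.3 and 24501 CPM in CM (log2 fold change 1.59, SE 0.31, adjusted p = 0.0194). The protease Ctsz stood at 876, 838 and 902 CPM in control and 1968, 1854 and 2103 CPM in CM (log2 fold change 1.18, SE 0.14, adjusted p = 0.00294). Ctsl stood at 2177, 1485 and 1886 CPM in control and 2542, 5596 and 5521 CPM in CM, with CM 1 near control (log2 fold change 1.3, SE 0.31, adjusted p = 0.0434). Ctsz stayed called in each of the 6 fits that lacked 1 control or CM library. Psap and Ctsl were not called without control 1, 2 or 3 or CM 2 or 3 (adjusted p up to 0.183).

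Osteoclasts arise from the same precursors as BMMs, and their genes were divided. Of 18 genes 5 rose and 1 fell (Acp5, Ctsk and Mitf rose beside those below). When 1 control or CM library was left out 3 to 5 rose and 0 fell, and in the libraries without Xist 8 rose and 4 fell. Atp6v0d2, a proton pump subunit needed for osteoclast fusion, stood at 20.7, 26 and 29 CPM in control and 328, 159.6 and 160.3 CPM in CM (log2 fold change 3.1, SE 0.31, adjusted p = 0.00146). Tcirg1, another pump subunit, stood at 268, 236 and 242 CPM in control and 715, 489.9 and 537 CPM in CM (log2 fold change 1.22, SE 0.17, adjusted p = 0.00535). Tnfrsf11a, the receptor RANK through which osteoclasts are induced, was lower in all libraries, going from 101, 80.3 and 80.3 to 35.9, 49.1 and 47 CPM (log2 fold change -0.99, SE 0.21, adjusted p = 0.0307). Atp6v0d2 and Tcirg1 stayed called in each of the 6 fits that lacked 1 control or CM library. Tnfrsf11a and Mitf lost the call whichever of the 6 libraries was left out (adjusted p up to 0.122 and 0.126).

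Of 14 enzymes of arginine, itaconate and tryptophan metabolism 4 rose (Arg2 and Sat1 beside those below) and 0 fell. Fits that lacked 1 control or CM library gave 0 to 3 that rose. Arg1, arginase, stood at 631, 269.9 and 300.3 CPM in control and 896, 6024 and 5721 CPM in CM (log2 fold change 3.4, SE 0.74, adjusted p = 0.0301). CM 1 lay just above the highest control, and CM 2 and 3 lay far above it. Acod1, which makes itaconate, stood at 3.24, 4.8 and 4.91 CPM in control and 77.5, 30.5 and 34.1 CPM in CM, with CM 1 the highest (log2 fold change 3.46, SE 0.59, adjusted p = 0.0119). Arg1 was not called without control 1, 2 or 3 or CM 2 or 3 (adjusted p up to 0.133). Acod1 was not called without control 1, 2 or 3 (adjusted p up to 0.0724). In the libraries without Xist the log2 fold changes were 4.36 and 2.74.

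Of 31 NRF2 antioxidant and glutathione genes 6 fell (Gclc, Gclm, Gsta3 and Taldo1 beside those below), 0 rose and 25 were not called. Their median was -0.12, and in the libraries without Xist 3 rose and 11 fell. All CM libraries lay above all controls for 6 and below them for 9, against 18.3% and 18.4% of all genes tested. Their summed level was 44628, 35387 and 34700 CPM in control and 50505, 48402 and 53876 CPM in CM, higher in every CM library. When 1 control or CM library was left out 3 to 5 fell. Sod1, which removes superoxide, stood at 406, 367 and 359.6 CPM in control and 124, 178 and 192 CPM in CM (log2 fold change -1.2, SE 0.19, adjusted p = 0.0088). Txnrd1, thioredoxin reductase, stood at 718, 673 and 641 CPM in control and 383, 378 and 366 CPM in CM (log2 fold change -0.85, SE 0.16, adjusted p = 0.0177). Of 34 genes of the integrated stress response 5 rose (Cebpb, Cebpg and Nupr1 beside those below) and 0 fell. 1 to 5 rose when 1 control or CM library was left out. Atf5 stood at 57.7, 56.7 and 46.4 CPM in control and 187, 161 and 164 CPM in CM, even across CM (log2 fold change 1.67, SE 0.15, adjusted p = 0.000894). Ddit3, which encodes CHOP, stood at 14.5, 12.7 and 12.7 CPM in control and 203, 41.1 and 44.2 CPM in CM, with CM 1 far above its mates (log2 fold change 2.86, SE 0.63, adjusted p = 0.0336). Of 18 iron handling genes 2 rose (Cp and Ncoa4) and 1 fell (Hfe). Ncoa4, which delivers ferritin for breakdown, stood at 43.7, 53.9 and 55.6 CPM in control and 163, 152 and 193 CPM in CM (log2 fold change 1.73, SE 0.24, adjusted p = 0.00475). The haemochromatosis gene Hfe stood at 72.3, 67.4 and 67.1 CPM in control and 39.7, 35.9 and 34.3 CPM in CM (log2 fold change -0.91, SE 0.15, adjusted p = 0.00965). Sod1, Atf5 and Ncoa4 stayed called in each of the 6 fits that lacked 1 control or CM library. Txnrd1 was not called without control 1, 2 or 3 or CM 2 or 3 (adjusted p up to 0.0793). Gclm and Taldo1 lost the call whichever of the 6 libraries was left out (adjusted p up to 0.178). Ddit3 was not called without control 1, 2 or 3 (adjusted p up to 0.137). Hfe was not called without control 2 or CM 2 (adjusted p up to 0.0518).

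Transcription factors of the macrophage lineage and of early responses moved in both directions. Of 31 lineage receptors and factors 6 rose and 1 fell, and of 27 immediate early genes 3 rose and 1 fell. Egr2, a zinc finger factor of alternatively activated macrophages, stood at 2.61, 5.34 and 6.88 CPM in control and 57, 44.5 and 47.2 CPM in CM (log2 fold change 3.33, SE 0.49, adjusted p = 0.00631). Klf4, another zinc finger factor, stood at 5.83, 4.9 and 7.31 CPM in control and 55.1, 26.1 and 24.2 CPM in CM (log2 fold change 2.55, SE 0.36, adjusted p = 0.00535). Nr4a1, an orphan nuclear receptor, stood at 13.1, 5.97 and 6.76 CPM in control and 3.79, 2.9 and 3.43 CPM in CM (log2 fold change -1.35, SE 0.33, adjusted p = 0.0498). For all 3 genes the CM libraries lay on 1 side of the controls. Of 23 NF-kB subunits and feedback inhibitors 3 rose (Tnfaip3, Ikbke and Traf1) and 1 fell (Tnip3). Tnfaip3, the ubiquitin editor A20, stood at 17.4, 16.3 and 21.6 CPM in control and 44.1, 38.2 and 24.8 CPM in CM (log2 fold change 0.95, SE 0.23, adjusted p = 0.0434), and was not called in the libraries without Xist (adjusted p = 0.0695). Egr2 and Klf4 stayed called in each of the 6 fits that lacked 1 control or CM library. Nr4a1 lost the call whichever of the 6 libraries was left out (adjusted p up to 0.165). Tnfaip3 was not called without control 1, 2 or 3 or CM 1 or 2 (adjusted p up to 0.189).

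Of 31 inflammasome and cell death genes 3 rose (Casp4, Mlkl and Daxx) and 0 fell, and 12 rose in the libraries without Xist. Casp4, which senses cytosolic endotoxin, stood at 1.05, 1.89 and 1.69 CPM in control and 11.1, 6.17 and 6.31 CPM in CM (log2 fold change 2.35, SE 0.41, adjusted p = 0.0135). Mlkl, the pore protein of necroptosis, stood at 15.1, 23.5 and 23.1 CPM in control and 37.1, 80.3 and 82.2 CPM in CM (log2 fold change 1.69, SE 0.32, adjusted p = 0.0172). CM 1 was the highest CM library for Casp4 and the lowest for Mlkl, and CM and control did not overlap. Of 23 p53 targets and cell cycle inhibitors 1 rose (Mdm2) and 0 fell, where 4.04% of all genes tested rose and 1.57% fell. The unfolded protein response had 2 of 22 genes called higher (Hsp90b1 and Pdia4), and of 19 hypoxia genes 2 rose (Hif1a and Ero1l). Hif1a, the oxygen-regulated factor subunit, stood at 39.98, 46.4 and 61.7 CPM in control and 120.3, 109 and 98.3 CPM in CM (log2 fold change 1.15, SE 0.27, adjusted p = 0.0423). Casp4 was not called without control 1, 2 or 3 (adjusted p up to 0.0678). Mlkl was not called without control 1, 2 or 3 or CM 2 or 3 (adjusted p up to 0.0849). Hif1a, Mdm2 and Hsp90b1 lost the call whichever of the 6 libraries was left out (adjusted p up to 0.164). Ero1l was not called without control 1, 2 or 3 or CM 2, Daxx without control 1 or 2 or CM 2 or 3, and Pdia4 without control 2.

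Genes of the cell cycle were not called with all libraries and many fell within those without Xist. Of 35 mitosis genes 0 were called with all libraries and 31 of 35 fell in the libraries without Xist, where the median was -1.18. For 37 DNA replication genes the numbers were 0 and 25, with a median of -0.62. All 3 CM libraries lay below all 3 controls for 21 of the mitosis and 33 of the replication genes, against 18.4% of all genes tested. The median difference of the replication genes from the control mean was -1.99, -0.61 and -0.58 in CM 1, 2 and 3. With all libraries DESeq2 called 0 mitosis and 4 replication genes lower, voom 0 of both, and edgeR at an unadjusted p under 0.05 gave 6 and 10 lower. Over all 15429 genes tested that cut gave 3307, higher and lower together. Ccna2, which encodes cyclin A2, stood at 82.7, 164 and 222 CPM in control and 28.2, 62.7 and 75.7 CPM in CM (log2 fold change -1.49, SE 0.67, adjusted p = 0.237 with all libraries, and log2 fold change -1.48, SE 0.18, adjusted p = 0.002 without the Xist libraries). Racgap1, needed for cytokinesis, stood at 114, 182 and 207 CPM in control and 38.9, 73.3 and 75.6 CPM in CM (log2 fold change -1.42, SE 0.90, adjusted p = 0.404 with all, and log2 fold change -1.38, SE 0.11, adjusted p = 0.000396 without). Mcm6, a subunit of the replicative helicase, stood at 454, 399.6 and 394 CPM in control and 91.1, 250.5 and 236 CPM in CM (log2 fold change -1.11, SE 0.55, adjusted p = 0.286 with all, and log2 fold change -0.71, SE 0.11, adjusted p = 0.00677 without). The median difference of the mitosis genes from the control mean was -0.77, 0.32 and 0.36 in the controls themselves and -1.96, -0.96 and -0.88 in CM, so replicate 1 was lowest in both groups. The difference of CM 1 from control 1 was -1.55 for Ccna2 and -2.31 for Mcm6, and that of replicates 2 and 3 was -1.47 and -0.71.

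Few genes of energy metabolism and protein synthesis were called. None of 26 glycolysis genes, 35 nuclear genes of the respiratory chain or 54 ribosomal protein genes was called with all libraries by edgeR, DESeq2 or voom, with medians of -0.02, -0.18 and -0.23. At an unadjusted p under 0.05 edgeR gave 2, 0 and 0 of them higher and 1, 3 and 7 lower, against 3307 of all 15429 genes, higher and lower together. In the libraries without Xist 8, 0 and 0 rose and 0, 0 and 1 fell. Eno1, which encodes enolase, stood at 2126, 1705 and 1650.2 CPM in control and 862, 2229.6 and 2158 CPM in CM, lower than control in CM 1 and higher in CM 2 and 3 (log2 fold change 0.39, SE 0.10, adjusted p = 0.0362 in the libraries without Xist). Pkm, pyruvate kinase, stood at 4814, 4156 and 3981 CPM in control and 2489.7, 3955 and 4102 CPM in CM (log2 fold change -0.30, SE 0.24, adjusted p = 0.525).

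**Figure D5:**
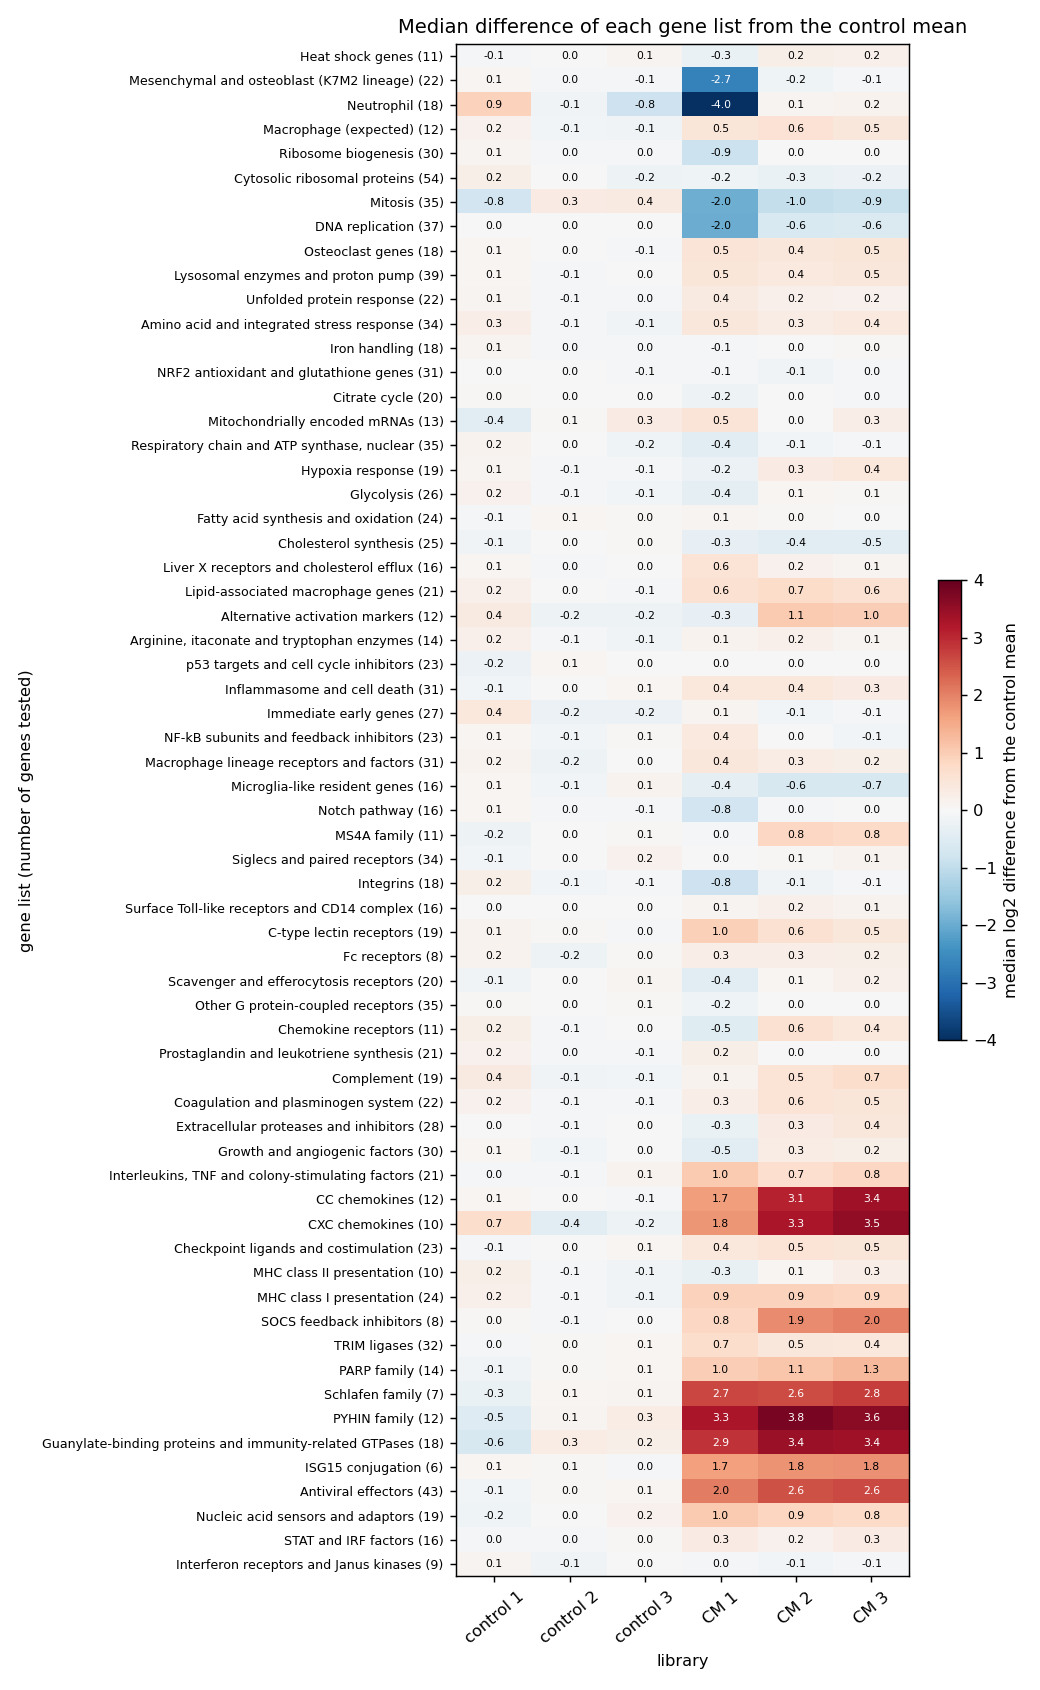
Each cell is the median over 1 gene list of the log2 difference of 1 library from the mean of the 3 controls (red above, blue below, number of genes tested in brackets). Interferon-induced families and chemokines are high in all 3 CM libraries, and CM 1 alone is far lower for the neutrophil list (-4.01) and the mesenchymal list (-2.70).

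Some of the called genes with the largest or most even changes lie outside the main lists. Tgm1, a transglutaminase, stood at 1.05, 1.4 and 1.18 CPM in control and 14.2, 15.2 and 17.1 CPM in CM (log2 fold change 3.68, SE 0.28, adjusted p = 0.000751). CM and control did not overlap. Cspg4, a chondroitin sulphate proteoglycan, stood at 27.7, 7.42 and 7.76 CPM in control and 1.07, 0.467 and 0.973 CPM in CM (log2 fold change -4.09, SE 0.62, adjusted p = 0.00723). Hpgd, which inactivates prostaglandins, stood at 33.7, 26 and 29.8 CPM in control and 2.35, 7.29 and 7.39 CPM in CM (log2 fold change -2.4, SE 0.40, adjusted p = 0.0106), and was the gene edgeR called of 21 of prostaglandin and leukotriene synthesis. DESeq2 called 2 of them higher and 2 lower, and in the libraries without Xist 7 rose and 2 fell. Tgm1, Cspg4 and Hpgd stayed called in each of the 6 fits that lacked 1 control or CM library.

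Of the 59 genes, in lists or not, that were more than 4-fold higher in CM 1 than in its mates, 6 were called higher against control and 0 lower. Of the 234 lower ones 14 were called higher and 0 lower. Of all genes tested 4.04% were called higher and 1.57% lower. Both sets were picked by the spread of CM values that also enter the call, so these counts are fixed in part. Slc6a12, a transporter of betaine and GABA, stood at 0.533, 0.070 and 0.448 CPM in control and 74.4, 2.06 and 2.41 CPM in CM. It was not called with all libraries (adjusted p = 0.103) and rose in those without Xist, at low levels (log2 fold change 3.13, SE 0.76, adjusted p = 0.0308). Cdkn1c, a cell cycle inhibitor, stood at 3.04, 5.22 and 4.83 CPM in control and 23.2, 0.795 and 0.996 CPM in CM, above control in CM 1 and below it in CM 2 and 3, and fell in the libraries without Xist (log2 fold change -2.48, SE 0.23, adjusted p = 0.000703). Pf4, a chemokine of platelets that macrophages also make, stood at 615, 304 and 285 CPM in control and 439.6, 2711 and 2816 CPM in CM. It was not called with all libraries (adjusted p = 0.179) and rose in those without Xist (log2 fold change 3.23, SE 0.12, adjusted p = 1.92e-05). Ly6c2, a marker of inflammatory monocytes, stood at 5.79, 3.4 and 2.89 CPM in control and 0.0593, 8.32 and 9.34 CPM in CM, and was not called with all libraries (adjusted p = 0.806) but was in the libraries without Xist (log2 fold change 1.49, SE 0.18, adjusted p = 0.00224).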

How the data were processed

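Polyadenylated RNA of 9 mouse BMM libraries (3 control, 3 CM, 3 CM with DTM) was extracted with TRIzol, prepared with an mRNA kit and read on the DNBSEQ-T7 platform (per the labels' protocols). Deposited values are raw counts per gene, made by the authors, for 51826 rows. Tools named per the submitters' processing notes are HISAT2 2.1.0, Trimmomatic 0.36, DESeq2 1.12.4 and FastQC 0.11.2, and the notes give mm39 and GRCh38 as builds without a role. Counting program, annotation and strand setting are not given in the sources used here. Therefore antisense and overlapping genes are uncertain.

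Counts were fitted in R 4.3.3 with edgeR 4.0.16 (quasi-likelihood test, TMM scaling, filterByExpr by group), all 9 libraries in 1 fit, with Benjamini-Hochberg adjustment over 15429 genes and a threshold of 0.05. Each standard error was computed from the log2 fold change and its F statistic. Scripts were tested on simulated data, with 1 spread for all genes that was not taken from these libraries. There the fit called 12.1% of genes with a log2 change of 1 and 93.9% of those with 2, with 3 false calls. A gene that was not called may thus have changed. No 2 libraries within control or within CM were alike within counting noise, and other pairs were not checked. Between 43084296 and 50407973 counts per control or CM library limit counting error, and 3 libraries a group limit precision more.

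Genes described were those with the largest fold changes among genes of at least 5 CPM, those with the largest CPM gains, those with the lowest p, those farthest off in CM 1 and up to 4 called genes per list. Genes named in brackets without values, and the genes at the ends of runs, were chosen after their values were seen. The comparison, the lists and the rule were chosen with earlier results of these data known. Promoters came from RefSeq, GRCm38.p6, matched by symbol. Alternatives used limma 3.58.1 (voom), DESeq2 1.42.0, other scalings, filters and sets of libraries. Some genes that the rule selects are not reported here.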

Additional observations from a re-analysis of the deposited data

How the results depend on the processing

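Against 623 rises and 242 falls, total count scaling gave 415 and 464, DESeq2 1263 and 674, no filter 549 and 157, the 6 libraries alone 897 and 463, and a minimum fold of 1.5 gave 259 and 72. Leaving out CM 1 and the first DTM library gave 1502 and 1001, only libraries without Xist 1514 and 1318, and a term for libraries with Xist 802 and 443 (these 3 were chosen after seeing the data). Leaving out 1 library gave 182 to 1207 rises and 68 to 677 falls. The replicate number as a block gave 477 and 198 with 9 libraries and 396 and 189 with 6, and kept 145 and 120 of 176 called genes that the naming rule selects. Deviations of same-numbered libraries from their group means correlated at 0.032, 0.038 and -0.044, and those of differently numbered libraries at -0.087 to 0.070. The CM means include CM 1, which stood apart, so these values cannot decide whether the numbers are pairs. The number 1 library of each group held Xist. Whether donors were shared is not known. With total count scaling the genes with all CM libraries above or below control were 1657 and 4537, not 2826 and 2843. Of these 176, 174 were called without the Xist libraries (not Mertk and Tnfaip3), 173 by DESeq2, 165 by voom and 154 with total counts. Leaving out control 1, 2 or 3 kept 90, 85 and 95 of them, and CM 1, 2 or 3 149, 105 and 114. Cdkn1c turned from 0.94 to -2.28 without CM 1, -2.25 without it and the first DTM library, and -2.48 without Xist libraries. Clec4e turned from 1.59 to -1.5, -1.47 and -1.40 (2.13 without CM 2 or 3), and Eno1 from -0.06 to 0.39 without Xist libraries. Fewer samples enter there, and other causes were not tested.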

Other observations

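Most listed markers of lymphoid cells and of granulocytes other than neutrophils fell below the count filter. Tested were 4 of 13 mast cell and basophil, 5 of 14 T and NK cell and 4 of 11 B cell genes. Of all genes tested 4.04% rose and 1.57% fell. Of 4 mast cell and basophil genes tested 1 rose, Mcpt8, a basophil protease, which stood at 1.32, 2.22 and 1.47 CPM in control and 2.13, 29.1 and 31.1 CPM in CM (log2 fold change 3.63, SE 0.81, adjusted p = 0.0346). CM 1 lay within the range of the controls and CM 2 and 3 far above it. Of 5 T and NK cell genes 1 rose, the kinase gene Lck, at 0.079, 0.175 and 0.285 CPM in control and 3.81, 1.33 and 1.59 CPM in CM (log2 fold change 3.63, SE 0.67, adjusted p = 0.0163), and of 4 B cell genes 1 fell, the immunoglobulin heavy chain gene Ighm, at 11.8, 7.65 and 7.37 CPM in control and 0.869, 2.78 and 2.7 CPM in CM (log2 fold change -2.08, SE 0.43, adjusted p = 0.0265). Mcpt8 and Ighm were not called without control 1, 2 or 3 or CM 2 or 3 (adjusted p up to 0.153). Lck was not called without control 1 or 2 (adjusted p up to 0.0856). None of 4 dendritic, 4 erythroid and megakaryocyte or 5 endothelial and epithelial genes tested was called by edgeR, DESeq2 or voom. At an unadjusted p under 0.05 edgeR gave 0, 1 and 1 higher and 0, 0 and 1 lower.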
